A study of Mus musculus with 13 samples.

Results

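Transcription factors and regulators that maintain blood stem cells were compared between mice expressing PML-RARA and wild-type mice, in 2 sorted bone marrow populations. The 9 genes were Hlf, Meis1, Evi1 (the older symbol of Mecom), Prdm16, Gata2, Gata3, Gfi1b, Mllt3 and Ndn. They were covered by 114 probe sets, those of the 208397 listed with a single gene whose annotation names one of these 9. A probe set is a small group of array probes against one stretch of a transcript. Meis1 had 17 probe sets, Prdm16 18, Hlf 15, Evi1 15, Mllt3 14, Gata3 12, Gata2 11, Gfi1b 10 and Ndn 2. Gene values are medians of log2 intensity over a gene's probe sets, taken on each array, and all 9 genes were among the 11030 of 15757 measured genes that passed a filter on dim genes (mean log2 intensity above 5.93).
The 13 exon arrays, each from one mouse of the strain labelled Bl/6 Taconic, fell into 5 groups. Wild-type KLS cells came from 4 mice aged 12 or 13 weeks. KLS cells of mCG-PR mice came from 3 mice aged 6 weeks and 2 mice aged 13 weeks. SLAM cells came from 2 wild-type mice aged 6 weeks and 2 mCG-PR mice aged 7 weeks. The mCG-PR mice carry the PML-RARA fusion in the murine cathepsin G locus, so that its expression follows that promoter, and the label of the mutant line reads mCG-PR N17. The design calls the wild-type mice littermate controls. KLS cells are Kit-positive, lineage-negative and Sca-1-positive marrow cells, stem cells mixed with early progenitors. The name SLAM refers to the receptor family by which stem cells are enriched further. Neither gate is given in the sources used here. The ages of the wild-type KLS mice matched the older but not the younger mCG-PR KLS mice, so age and genotype cannot be told apart in the comparison of 6-week mCG-PR KLS cells with wild-type KLS cells.

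Self-renewal of blood stem cells depends on a small set of nuclear proteins that keep them undivided and block their differentiation. Hlf is a PAR bZIP factor that marks the most immature cells. Meis1 is a TALE homeodomain protein that binds DNA together with Hox and Pbx proteins. Evi1 and Prdm16 are related zinc finger proteins of the PR domain family, both needed for long-term stem cells. Gata2 and Gata3 are GATA zinc finger factors, Gfi1b is a zinc finger repressor best known from red cell and platelet formation, and Mllt3 (AF9) reads acylated histones and takes part in transcription elongation. Ndn (necdin) is an imprinted growth suppressor of the MAGE family, expressed from the paternal copy. PML-RARA is the fusion protein of acute promyelocytic leukaemia, a repressor at many retinoid and myeloid genes.

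Promoter sequences are given for 4 of the genes whose values the results turn on, Hlf and Evi1 for the KLS comparison and Mllt3 and Ndn for the comparison of SLAM with KLS cells. Each is the 250 bases before an annotated start in RefSeq on GRCm38.p6, read 5′ to 3′ on the strand of the gene. Hlf lies at chr11:90390918-90391167 (minus strand), the distal start of Mecom (Evi1) at chr3:30509760-30510009 (minus strand), Mllt3 at chr4:88033408-88033657 (minus strand) and Ndn at chr7:62348027-62348276 (plus strand). Capitals mark a match to one of the motifs searched.
Hlf: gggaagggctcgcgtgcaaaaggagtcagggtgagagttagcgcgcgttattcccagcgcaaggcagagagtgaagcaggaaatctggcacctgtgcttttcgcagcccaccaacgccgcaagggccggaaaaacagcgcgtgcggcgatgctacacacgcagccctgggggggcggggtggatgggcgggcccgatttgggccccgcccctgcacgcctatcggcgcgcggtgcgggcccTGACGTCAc
Mecom: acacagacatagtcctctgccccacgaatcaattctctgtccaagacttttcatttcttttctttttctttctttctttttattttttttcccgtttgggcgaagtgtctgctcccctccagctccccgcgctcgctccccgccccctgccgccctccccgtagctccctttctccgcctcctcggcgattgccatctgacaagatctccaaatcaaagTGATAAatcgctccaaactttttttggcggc
Mllt3: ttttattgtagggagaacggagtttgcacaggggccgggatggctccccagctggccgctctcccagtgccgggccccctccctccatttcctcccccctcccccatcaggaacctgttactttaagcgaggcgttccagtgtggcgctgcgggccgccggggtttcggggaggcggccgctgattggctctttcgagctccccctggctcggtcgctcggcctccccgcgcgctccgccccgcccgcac
Ndn: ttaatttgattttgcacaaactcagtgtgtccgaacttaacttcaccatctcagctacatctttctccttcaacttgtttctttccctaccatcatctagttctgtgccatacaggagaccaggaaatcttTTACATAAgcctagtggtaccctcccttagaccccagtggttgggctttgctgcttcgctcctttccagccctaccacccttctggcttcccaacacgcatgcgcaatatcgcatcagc
The capitals in Hlf are the cAMP response element TGACGTCA, which was added to the search after the sequence had been read and which occurs in 1.55% of 32851 mouse promoters of the same length. The capitals in Mecom are the GATA form TGATAA. The capitals in Ndn are TTACATAA, which reads TTATGTAA on the other strand, the PAR bZIP sequence of the kind that Hlf binds, and TTACGTAA or TTATGTAA occurred in 0.931% of promoters. No motif searched occurred in these 250 bases of Mllt3, which says only that those letters are not in this window. All 9 genes matched the RefSeq promoter table, with 12 starts. A GATA form (AGATAA, also with T as its first letter, G as its last or both, either strand) occurred at 4 of the 12 starts, in 3 genes, against 26.5% of all promoters. The Meis sequence TGACAG occurred at 2 of 12 against 15.9%, the ETS sequence GGAAGT at 1 against 19.7%, and the nuclear receptor half-site AGGTCA at 1 against 14%. That half-site lies at the second start of Mecom (chr3:30013205-30013454, minus strand), which is not shown and also holds a GATA and a Meis match. Which start the Evi1 probe sets follow was not determined. The G and C content was 67.2% for Hlf, 69.2% for Mllt3, 50.8% for Mecom and 47.2% for Ndn, beside a median of 52.4% over all promoters. The Hlf window held 26 CpG dinucleotides, Mllt3 23, Mecom 14 and Ndn 5, beside a median of 6.

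Of the gate genes, Cd48 separated the sorted populations in the direction of the sort, and the group means of Slamf1 differed in its direction. Cd48, the receptor that stem cell sorting selects against, had a mean log2 intensity of 8.83 in wild-type KLS and 5.13 in wild-type SLAM cells, and of 9.37 (6 weeks) and 8.99 (13 weeks) in mCG-PR KLS against 4.25 in mCG-PR SLAM cells. Slamf1 (CD150), which that sort selects for, was at 7.58 in wild-type SLAM and 6.42 in mCG-PR SLAM cells against 5.46 to 5.98 in the 3 KLS groups. On single arrays mCG-PR SLAM cells (6.21 and 6.63) overlapped with wild-type KLS (up to 6.24) and 13-week mCG-PR KLS cells (up to 6.31). Flt3 and Cd34, also among the gate genes, separated the populations as well. They read at most 8.51 and 8.79 on the SLAM arrays and at least 10.11 and 9.92 on the KLS arrays. Kit (9.57 to 10.40) and Ly6a, which encodes Sca-1 (8.85 to 9.49), had high group means throughout. Neutrophil markers were not absent: the mean over the 8 listed genes, all measured, ran from 9.51 to 9.64 on the wild-type KLS arrays, 8.86 to 9.98 on the 6-week and 9.01 to 9.16 on the 13-week mCG-PR KLS arrays, 7.76 to 8.61 on the mCG-PR SLAM arrays and 9.14 and 11.24 on the wild-type SLAM arrays, where replicate 2 stood apart. Y-linked genes (Eif2s3y and Jarid1d, a pair picked after their values were seen) averaged 4.23 to 4.53 on both mCG-PR SLAM arrays and on replicate 3 of the 6-week mCG-PR KLS group, against 7.67 to 8.48 on the other arrays. The sorted populations are bulk samples, in which fewer cells of a type and less RNA per cell cannot be told apart. The arrays' median intensities ranged from 98.6 to 115.3.

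**Figure D1:**
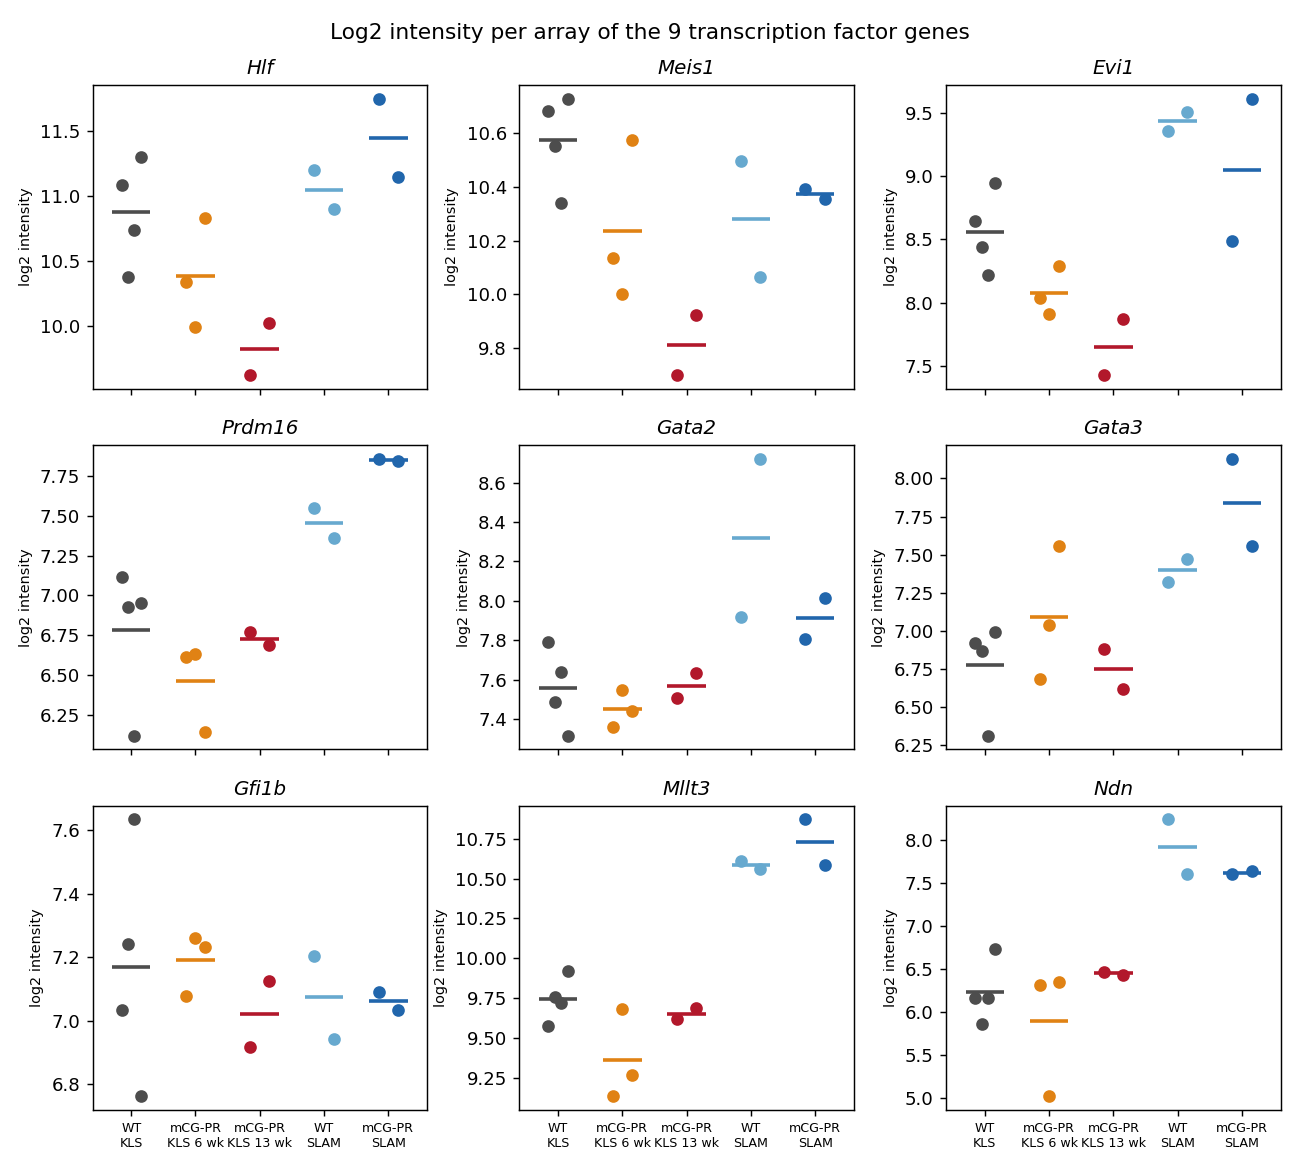
Log2 intensity (vertical axes, a separate scale per gene) of the 9 genes on the 13 arrays, by group along the horizontal axis; points are arrays, lines group means. For Hlf, Meis1 and Evi1 both 13-week mCG-PR KLS arrays lie below all 4 wild-type KLS arrays. For Mllt3, Prdm16 and Ndn all 4 SLAM arrays lie above all 9 KLS arrays. Those of Gata2 do so narrowly (lowest SLAM 7.81, highest KLS 7.79).

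Hlf, Meis1 and Evi1 lay below wild type in the KLS cells of 13-week mCG-PR mice, by 1.70-fold to 2.07-fold, but no gene of the set passed the test in KLS cells. Hlf read 11.08, 10.38, 10.74 and 11.30 on the wild-type KLS arrays, 10.34, 9.99 and 10.83 on the 6-week and 9.62 and 10.03 on the 13-week mCG-PR KLS arrays. Meis1 read 10.68, 10.55, 10.34 and 10.73 in wild-type cells, 10.13, 10.001 and 10.57 at 6 weeks and 9.70 and 9.92 at 13 weeks. Evi1 read 8.65, 8.44, 8.21 and 8.94 in wild-type cells, 8.04, 7.91 and 8.29 at 6 weeks and 7.42 and 7.87 at 13 weeks. For each of these genes both 13-week arrays lay below every wild-type array. Replicates 1 and 2 of the 6-week group also did, while replicate 3 lay within the wild-type range. Replicate 3 was the KLS array with low Y-linked values (mean 4.53), and the part of that was not tested.

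At 13 weeks the difference from wild-type KLS cells was −1.05 ± 0.29 (SE) on the log2 scale for Hlf, a value 2.07-fold lower (95% interval −1.68 to −0.42; adjusted p = 0.551, limma). For Meis1 it was −0.76 ± 0.21, 1.70-fold lower (−1.21 to −0.32; adjusted p = 0.551, limma). For Evi1 it was −0.91 ± 0.29, 1.89-fold lower (−1.54 to −0.29; adjusted p = 0.582, limma). Adjustment was by Benjamini-Hochberg over all 11030 genes with a threshold of 0.05. At that threshold 0 of the 9 genes and 0% of all genes were called. At an unadjusted p under 0.05, 3 of the 9 genes were lower, against 2.87% of all genes, and 824 genes passed in either direction. The same 3 did not overlap with wild type, against 10.1% of all genes that lay wholly lower. Taking the mean in place of the median of the probe sets brought the differences to −0.55 for Hlf, −0.53 for Meis1 and −0.52 for Evi1, with adjusted p-values of 0.395 to 0.405.

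Single probe sets pointed the same way. All 17 probe sets of Meis1 were lower at 13 weeks than in wild-type KLS cells, by 0.07 to 1.00 on the log2 scale, as were 14 of 15 for Evi1 and 13 of 15 for Hlf. Probe sets of a gene share its RNA and arrays and are no replicates of the condition. Of the 7 gate genes, 3 did not overlap between the groups, against 25.1% of all genes that did not overlap in either direction. Kit read 9.56 and 9.58 at 13 weeks and 10.01 to 10.26 in wild-type KLS cells, Cd34 9.92 and 10.13 against 10.25 to 10.56, and Flt3 10.47 and 10.67 against 10.11 to 10.31. The mean of the 8 monocyte, macrophage and dendritic markers was 6.50 and 6.60 against 5.87 to 6.19. That of the 8 neutrophil markers was 9.01 and 9.16 against 9.51 to 9.64, and that of the 4 B cell markers 6.93 and 7.03 against 6.55 to 6.86. The mean of the 7 gate genes was also lower without overlap, 8.63 and 8.65 against 8.72 to 8.96. The means of the other marker lists overlapped. The part of these marker levels in the result was not tested.

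**Figure D2:**
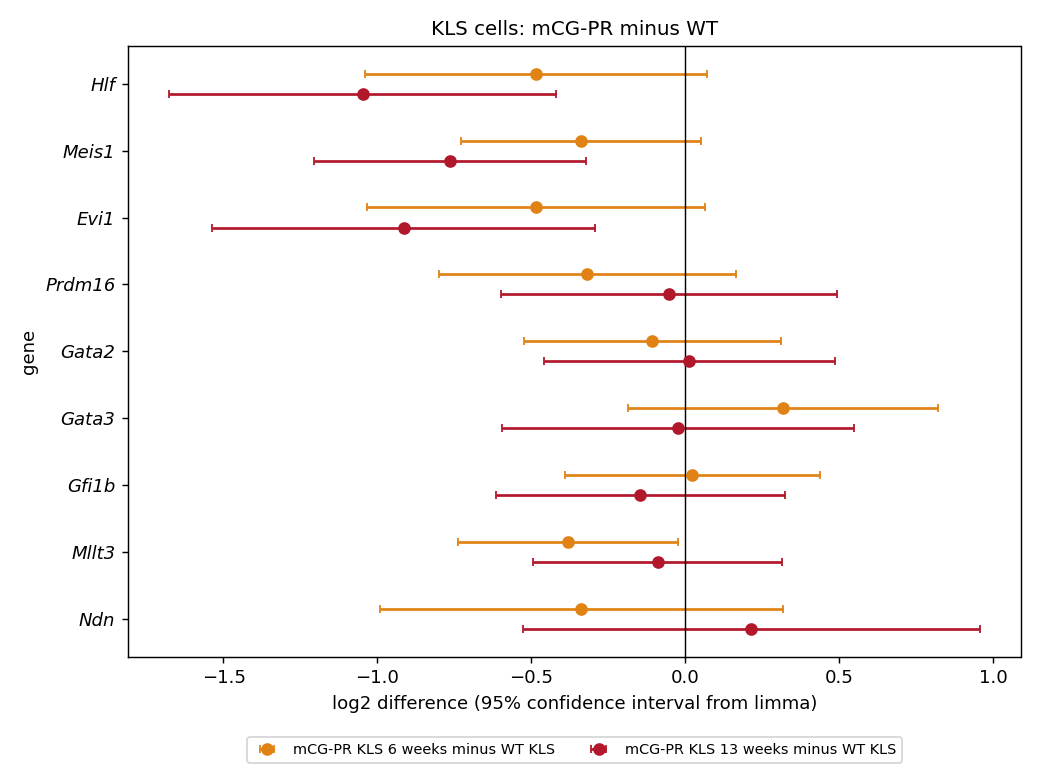
Log2 difference of mCG-PR from wild-type KLS cells (horizontal axis) for the 9 genes, at 6 weeks (orange) and 13 weeks (red); points are limma estimates, bars their 95% intervals. At 13 weeks the intervals of Hlf, Meis1 and Evi1 lie below 0; both ages share the 4 wild-type arrays.

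At 6 weeks the corresponding differences were −0.49 ± 0.26 for Hlf, −0.34 ± 0.18 for Meis1 and −0.48 ± 0.25 for Evi1, and each 95% interval included 0. Mllt3 was the 1 gene of the 9 that was lower at an unadjusted p under 0.05 at this age, against 0.861% of all genes. It read 9.57, 9.76, 9.72 and 9.92 on the wild-type KLS arrays, 9.14, 9.68 and 9.27 at 6 weeks and 9.62 and 9.69 at 13 weeks. Only 2 of the 3 younger arrays lay below wild type, and the difference was −0.38 ± 0.17 (adjusted p = 0.740, limma). All 14 Mllt3 probe sets were lower at 6 weeks, by 0.08 to 0.68. No gene of the set was called at 6 weeks, where 1 gene of all was (0.00907%). At 13 weeks the gene value of Mllt3 differed from wild type by −0.09 ± 0.19, but 10 of its 14 probe sets were lower, and the median of the probe set differences was −0.46 (from −1.34 to 0.42), beside −0.26 at 6 weeks. The gene value, a median of levels taken on each array, and the median of the differences thus part at 13 weeks. The monocyte, macrophage and dendritic marker mean was 6.43 to 6.73 on the 6-week arrays against 5.87 to 6.19 on the wild-type KLS arrays, and the mean of the 5 erythroid markers 6.90 to 7.15 against 7.25 to 7.44. The part of these markers was not tested.

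Prdm16, Gata2, Gata3, Gfi1b and Ndn gave no difference between mCG-PR and wild-type KLS cells beyond their spread. Prdm16 read 7.12, 6.93, 6.12 and 6.95 in wild-type cells, 6.61, 6.63 and 6.14 at 6 weeks and 6.77 and 6.69 at 13 weeks. One low wild-type array, replicate 3, placed all 5 mutant arrays inside the wild-type range. Gata2 averaged 7.56 ± 0.20 (SD, n = 4) in wild-type cells, 7.45 ± 0.09 (n = 3) at 6 weeks and 7.57 ± 0.09 (n = 2) at 13 weeks. Gfi1b averaged 7.17 ± 0.37 (n = 4), 7.19 ± 0.10 (n = 3) and 7.02 ± 0.15 (n = 2). The GATA factor of stem cells and the erythroid repressor thus had nearly level means in the 3 KLS groups. Gata3 averaged 6.77 ± 0.31 (n = 4), 7.09 ± 0.44 (n = 3) and 6.75 ± 0.19 (n = 2). Its highest KLS array, at 7.55, was replicate 3 of the 6-week mCG-PR group. Ndn averaged 6.24 ± 0.36 (n = 4), 5.90 ± 0.76 (n = 3) and 6.45 ± 0.03 (n = 2), with a lone low value of 5.02 on replicate 2 of the 6-week group. The 95% intervals at 13 weeks ran from −0.46 to 0.49 for Gata2 and from −0.53 to 0.96 for Ndn, so differences of those sizes in either direction are not excluded.

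With both ages pooled, 8 of the 9 genes had a difference from wild-type KLS cells below 0, against 32.2% of all genes. Their median was −0.21, beside 0.09 over all genes tested. Of the 9, 3 had an unadjusted p under 0.05 and were lower, against 1.14% of all genes. No gene of the set was called and none was free of overlap between the 5 mutant and 4 wild-type arrays; over all genes 0% were called and 4.25% did not overlap. By gene value Gata3 was the exception to the lower direction, at 0.18 ± 0.21. For Gata2 and Prdm16 the direction depended on the summary. Their gene values differed by −0.06 and −0.21. Yet 8 of 11 Gata2 probe sets (median 0.09) and 9 of 18 for Prdm16 (median 0.01) lay above 0. The median of the probe set differences was below 0 for Hlf, Meis1, Evi1, Mllt3, Gfi1b and Ndn.

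Between the older and younger mCG-PR mice, Hlf differed by −0.56 ± 0.31, Meis1 by −0.42 ± 0.22 and Evi1 by −0.43 ± 0.30 (13 weeks minus 6 weeks; adjusted p = 0.824, 0.824 and 0.870, limma). Meis1 and Evi1 were lower without overlap, and Prdm16 and Ndn higher without overlap, by 0.27 ± 0.27 and 0.55 ± 0.36. With 2 arrays against 3, 30.5% of all genes did not overlap in one direction or the other. Replicate 3 of the 6-week group, which had low Y-linked values, held the highest Hlf, Meis1 and Evi1 values of that group. The part of that array in these differences was not tested. No gene of the set was called, 0% of all genes were, and 690 genes had an unadjusted p under 0.05.

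Hlf, Meis1 and Evi1 also varied together from mouse to mouse. Over the 9 KLS arrays Pearson's r was 0.932 between Hlf and Meis1, 0.935 between Hlf and Evi1 and 0.957 between Meis1 and Evi1, and Spearman's rho 0.967, 0.933 and 0.983. These points share the differences between the 3 KLS groups as well as the arrays. For the deviations from the group means r was 0.811, 0.827 and 0.859. Without the 2 arrays farthest from the median of the first gene, r was 0.871, 0.841 and 0.918 over 7 arrays. Ranked by r among the 11029 other genes, Meis1 had rank 1 for Evi1, and Evi1 rank 5 for Meis1. The order did not carry over to the SLAM arrays, where Evi1 read 8.48 on the array with the highest Hlf value, 11.75.

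**Figure D3:**
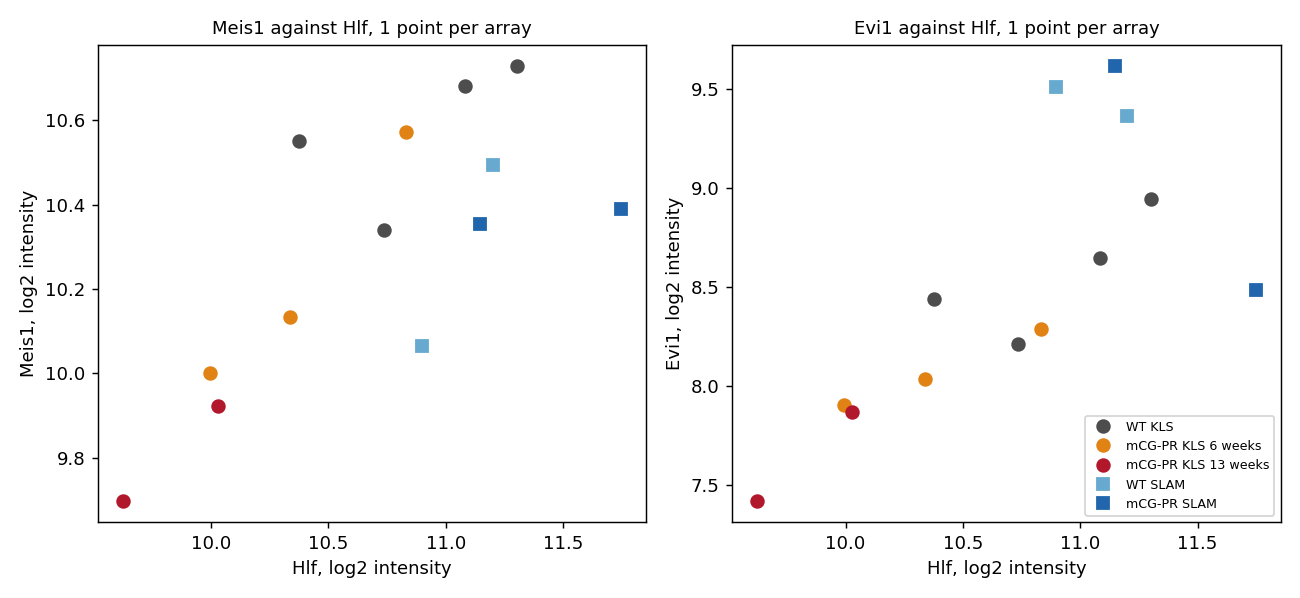
Meis1 (left) and Evi1 (right) against Hlf, in log2 intensity, with 1 point per array; circles are KLS and squares SLAM arrays. Over the 9 KLS arrays r is 0.932 and 0.935, from the 13-week mCG-PR arrays at the lower left to the wild-type arrays at the upper right.

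The 3 genes most like each of Hlf, Meis1 and Evi1 over the KLS arrays had only Pion in common. For Hlf they were Akr1e1 (r = 0.954), Pion (0.951; now Gsap) and Tbxas1 (0.947). For Meis1 they were Pion (0.973), Phtf2 (0.963) and Fbxl4 (0.957), and for Evi1 Ttc39b (0.954), Zeb1 (0.954) and Pion (0.945). The highest value for the other genes was 0.951 for Prdm16 (Fnbp4), 0.933 for Gata2 (Gja1), 0.959 for Gata3 (Stk11), 0.907 for Gfi1b (Aym1), 0.913 for Mllt3 (Gnrh1) and 0.889 for Ndn (Cgref1). Each r is over 9 arrays and is the highest of 11030 genes less the 9 of the set, and values of this size also occurred for Gata3 and Prdm16.

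In the SLAM cells of mCG-PR mice, Mllt3, Prdm16 and Ndn rose relative to the KLS cells of 6-week mCG-PR mice. The SLAM mice were 7 weeks old. SLAM arrays scattered more than KLS arrays, with a median SD within groups of 0.32 against 0.22 over all genes, so this test weighted the arrays by population. Mllt3 read 10.87 and 10.59 in mCG-PR SLAM cells against 9.14, 9.68 and 9.27 in the KLS cells, a difference of 1.37 ± 0.27 or 2.58-fold (95% interval 0.79 to 1.94; adjusted p = 0.0052, limma). Prdm16 read 7.86 and 7.84 against 6.61, 6.63 and 6.14, a difference of 1.39 ± 0.37 or 2.62-fold (0.59 to 2.19; adjusted p = 0.025, limma). Ndn read 7.60 and 7.64 against 6.32, 5.02 and 6.35, a difference of 1.72 ± 0.50 or 3.30-fold (0.67 to 2.78; adjusted p = 0.034, limma). None of the SLAM values of these genes overlapped with a KLS value. At an unadjusted p under 0.05, 5 of the 9 genes were higher, against 3.13% of all genes. The test called 3 of the 9, all higher, where 12.7% of all genes were called and 0.798% were called higher. The 9 genes had a median of 0.97, beside −0.18 over all genes. Of the 1398 genes called, 6.29% were higher, and after quantile normalisation 16.4% of 794 were.

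Hlf and Evi1 were also higher in mCG-PR SLAM cells, without passing the test. Hlf read 11.75 and 11.15 in mCG-PR SLAM cells against 10.34, 9.99 and 10.83 in the KLS cells (1.06 ± 0.41, adjusted p = 0.108, limma). Evi1 read 8.48 and 9.61 against 8.04, 7.91 and 8.29 (0.97 ± 0.36, adjusted p = 0.091, limma). Both were called when the mean of the probe sets was used and when the arrays were not weighted. Gata3 (0.75 ± 0.37) and Gata2 (0.46 ± 0.28) were also higher without overlap, so that 7 of the 9 did not overlap, against 13.5% of all genes that lay wholly higher. Meis1 differed by 0.14 ± 0.29 and Gfi1b by −0.13 ± 0.32, which became 0.04 when array medians were subtracted.

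The calls rested on a pair of SLAM arrays. Without replicate 1 of the mCG-PR SLAM group 0 of the 9 genes were called, and without replicate 2 only Mllt3 was. All 14 Mllt3 probe sets, 17 of 18 for Prdm16, 15 of 15 for Hlf, 11 of 11 for Gata2 and 14 of 15 for Evi1 were higher in the SLAM cells. The 2 probe sets of Ndn differed in size. One was higher by 3.20 and the other by 0.25, so the 1.72 given for the gene is the middle of unlike values. Both SLAM arrays had low Y-linked values, as did replicate 3 alone of the KLS arrays. Against that array only, the differences were 1.46 for Mllt3, 1.71 for Prdm16 and 1.27 for Ndn. A lone KLS array has no spread of its own, so these are values with no test. Mean neutrophil marker levels were 7.76 and 8.61 in the SLAM and 8.86 to 9.98 in the KLS cells, and those of the 7 mast cell and basophil markers 5.20 and 5.37 against 5.74 to 6.79. The T and NK cell marker mean was 5.70 and 5.82 against 6.18 to 6.74, and the monocyte, macrophage and dendritic mean 5.96 and 6.37 against 6.43 to 6.73. The B cell mean (6.52 and 6.56 against 6.61 to 6.90) and the stromal and endothelial mean (5.96 and 6.03 against 6.11 to 6.26) also lay lower without overlap, the erythroid mean higher (7.24 and 7.66 against 6.90 to 7.15), and the megakaryocyte mean overlapped. Of the genes tested in these lists, 3 of 6 monocyte, macrophage and dendritic markers were called lower, as were 2 of 5 T and NK markers. So were 1 of 3 mast cell and basophil and 1 of 8 neutrophil markers, the last near the 11.9% of all genes called lower. The neutrophil marker called was Mpo, with a difference of −4.98 ± 0.64 (adjusted p = 0.00057, limma), larger than those of the called markers named below. Called higher were 1 of 5 erythroid and 1 of 6 megakaryocyte markers, against 0.798% of all genes. Among the called markers Klrd1, a receptor of NK cells, fell by 2.85 and Siglech, a receptor of plasmacytoid dendritic cells, by 1.89. The globin gene Hbb-b1 rose by 1.88 on the log2 scale (adjusted p = 0.0035, 0.0016 and 0.0075 for these 3, limma). The part of these markers in the differences was not tested.

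**Figure D4:**
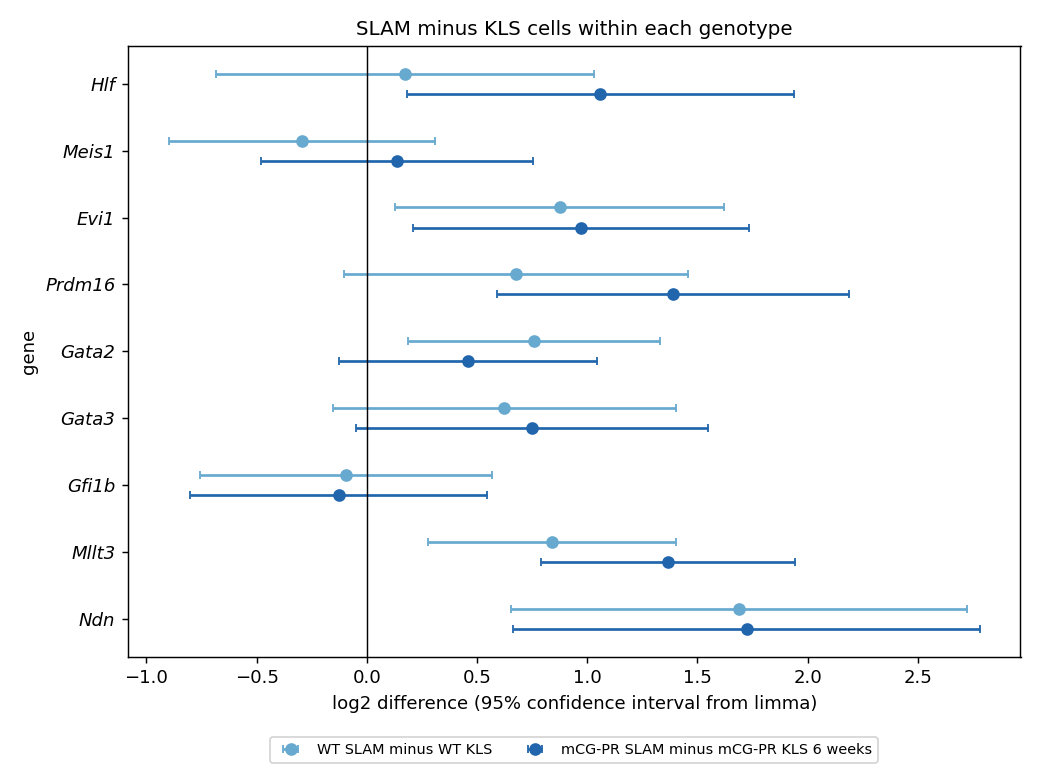
Log2 difference of SLAM from KLS cells (horizontal axis) for the 9 genes, in wild-type mice (light blue) and in mCG-PR mice against 6-week KLS cells (dark blue); points are limma estimates with weighted arrays, bars their 95% intervals. The intervals of Evi1, Mllt3 and Ndn lie above 0 in both genotypes.

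In wild-type mice Ndn again had the largest difference between SLAM and KLS cells, and no gene of the set was called. Ndn read 8.24 and 7.61 in SLAM cells against 6.17, 5.87, 6.17 and 6.74 in KLS cells (1.69 ± 0.49, 3.23-fold; adjusted p = 0.074, limma). Mllt3 read 10.61 and 10.56 against 9.57 to 9.92 (0.84 ± 0.26, 1.79-fold; adjusted p = 0.099). Evi1 read 9.36 and 9.51 against 8.21 to 8.94 (0.87 ± 0.35, 1.83-fold; adjusted p = 0.200). Gata2 read 7.92 and 8.72 against 7.32 to 7.79 (0.76 ± 0.27, 1.69-fold; adjusted p = 0.143). These 4 genes, with Prdm16 (0.68 ± 0.37) and Gata3 (0.62 ± 0.37), lay higher in the SLAM cells without overlap, against 13.1% of all genes. Of the 9, 4 had an unadjusted p under 0.05 and were higher, against 4.03% of all genes, while 3.06% of all genes were called. Hlf (0.17 ± 0.40), Meis1 (−0.30 ± 0.28) and Gfi1b (−0.09 ± 0.31) overlapped between the populations.

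The wild-type calls depended on the fit. Ndn was called with only the groups compared in the fit, with a block for the replicate number and without replicate 4 of the wild-type KLS group; Mllt3 was called with the mean of the probe sets; Gata2, Mllt3 and Ndn were called without array weights. Here too one Ndn probe set was higher by 2.78 and the other by 0.60. Replicate 2 of the wild-type SLAM group had the highest neutrophil marker mean of all arrays, 11.24, and the highest Gata2 value, 8.72. On both wild-type SLAM arrays the erythroid marker mean (7.57 and 7.98 against 7.25 to 7.44 in KLS cells), the megakaryocyte mean (7.16 and 7.25 against 6.41 to 7.11) and the monocyte, macrophage and dendritic mean (6.51 and 6.53 against 5.87 to 6.19) lay higher without overlap. Of the genes in the marker lists of other cell types, Vwf of platelets and megakaryocytes rose by 1.14 and Nkg7 of cytotoxic cells fell by 2.20 (adjusted p = 0.012 and 0.013, limma). The part of these markers was not tested. The ages differed as well, 6 weeks for the SLAM and 12 or 13 weeks for the KLS mice, and age and population cannot be told apart.

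**Figure D5:**
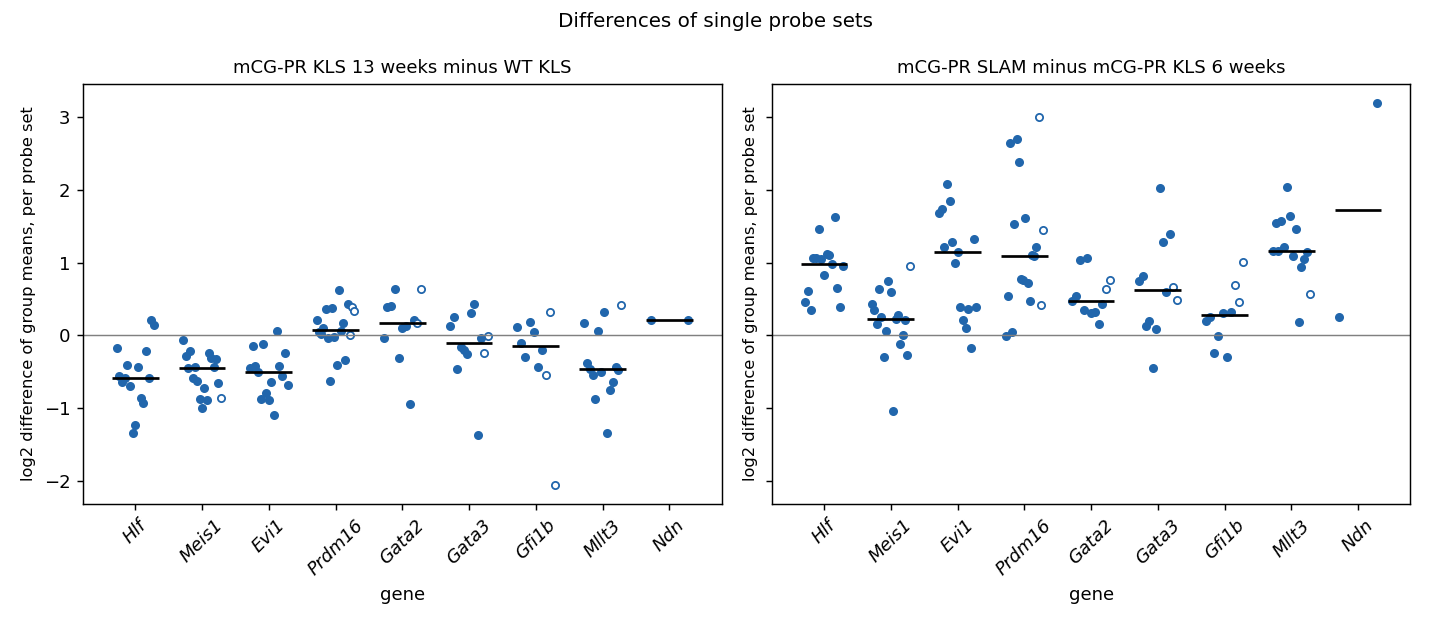
Log2 difference of each of the 114 probe sets (vertical axis) by gene, for 13-week mCG-PR against wild-type KLS cells (left) and mCG-PR SLAM against 6-week mCG-PR KLS cells (right); lines are medians, open circles probe sets with a mean below the filter threshold. All 17 Meis1 probe sets lie below 0 on the left and all 14 Mllt3 probe sets above 0 on the right, while the 2 Ndn probe sets on the right stand at 0.25 and 3.20.

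Between mCG-PR and wild-type SLAM cells no gene of the set was called, nor was any other gene (0%; 684 had an unadjusted p under 0.05). The 4 arrays of this comparison leave 2 residual degrees of freedom, and the intervals were wide. Hlf differed by 0.40 ± 0.34 (95% interval −0.46 to 1.25), Evi1 by −0.39 ± 0.44 (−1.49 to 0.72) and Meis1 by 0.09 ± 0.30 (−0.66 to 0.85). Gata2 differed by −0.41 ± 0.37, Ndn by −0.30 ± 0.33, Mllt3 by 0.14 ± 0.29 and Gfi1b by −0.01 ± 0.28. Prdm16 (0.39 ± 0.28) and Gata3 (0.44 ± 0.33) were higher in mCG-PR SLAM cells without overlap, against 35.2% of all genes that did not overlap in either direction. The 8 neutrophil markers were all lower in the mCG-PR SLAM cells, with differences of −3.06 to −1.36, and both mCG-PR arrays had low Y-linked values. The marker means of megakaryocytes (6.77 and 6.90 against 7.16 and 7.25), of monocytes, macrophages and dendritic cells (5.96 and 6.37 against 6.51 and 6.53) and of T and NK cells (5.70 and 5.82 against 5.88 and 6.43) were also lower without overlap. The part of any of these markers in these differences was not tested. Mean Y-linked values were 4.28 and 4.23 on the mCG-PR and 8.21 and 7.93 on the wild-type SLAM arrays. Y-linked level and genotype therefore cannot be told apart in this comparison.

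Whether the genotype difference was another one in SLAM than in KLS cells was tested directly. For Hlf the difference between the genotype differences was 1.11 ± 0.60 (adjusted p = 0.727, limma), from −0.71 in KLS cells of both ages and 0.40 in SLAM cells. It was 0.60 ± 0.44 for Meis1, 0.60 ± 0.50 for Prdm16 and 0.27 ± 0.52 for Evi1, and lay between −0.35 and 0.41 for the other genes. No gene of the set passed, 0% of all genes did, and 855 had an unadjusted p under 0.05. The SLAM side of this test used the same SLAM arrays, in which Y-linked level and genotype cannot be told apart.

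Further lists gave the setting. Of 33 other transcription factors of blood stem cells, such as Tal1, Runx1, Erg and Hoxa9, 32 were tested. In mCG-PR against wild-type KLS cells of both ages 17 of them lay above 0 and 15 below, with a median of 0.02, and 0 were called. The smallest p-values belonged to Nr4a1 (0.49 ± 0.22, adjusted p = 0.678, limma), an immediate early nuclear receptor, and Spi1 (0.44 ± 0.22, adjusted p = 0.709), which encodes the myeloid factor PU.1. In SLAM against KLS cells Ikzf2, which encodes the Ikaros family protein Helios, fell by 1.75 in wild-type mice (± 0.29, adjusted p = 0.0067, limma) and by 1.01 in mCG-PR mice (± 0.29, adjusted p = 0.035), the 1 call of 32 in each, against 3.06% and 12.7% of all genes called. Hoxb4, a homeobox gene known to expand stem cells, was higher by 1.28 ± 0.41 in mCG-PR SLAM cells, short of the threshold (adjusted p = 0.056), and Spi1 lower (−1.09 ± 0.35, adjusted p = 0.053). In wild-type mice Hoxb4 was at −0.28 ± 0.40 and Spi1 at −0.02 ± 0.34.

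The second list held 39 relatives and partners of the 9 genes, such as other Pbx, Meis, Prdm and MAGE family genes, of which 30 were tested. None was called in any comparison. In mCG-PR against wild-type KLS cells of both ages 25 of the 30 lay above 0, against 67.8% of all genes, with a median of 0.12. Nfil3, a bZIP repressor whose sites overlap with those of the PAR bZIP factors, had the smallest p (0.88 ± 0.29, adjusted p = 0.506, limma). In mCG-PR SLAM against KLS cells Magel2, an imprinted neighbour of Ndn, was at 0.77 ± 0.36 (adjusted p = 0.189), and Pknox2, a TALE relative of Meis1, at 0.67 ± 0.30 (adjusted p = 0.176).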

How the data were processed

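The deposited table holds the authors' processed values for 229581 probe sets on 13 Affymetrix mouse exon arrays, linear RMA intensity per the submitters' processing notes, which also name mm9; no RMA software version is named there. Per the labels' protocols, small amounts of total RNA were amplified before hybridisation. Values were converted to log2 with no further scaling. RMA equalises the distributions of probe values between arrays and summarises probes together. A shift in the cells shared by all genes can therefore not be measured. The deposited probe set values were still not level between arrays. Their medians ran from 98.6 to 115.3. In mCG-PR SLAM minus 6-week mCG-PR KLS cells 62.4% of all genes lay below 0. Probe sets with a single gene symbol in GEO's platform annotation were used (208397; 3965 had several and 17219 none). Genes needed at least 2 probe sets, took the median of their values, and were tested if their mean was above the 30th percentile (log2 5.93), which left 11030. Precision is limited by the number of arrays.

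Groups were compared with limma 3.58.1 in R 4.3.3 (lmFit, eBayes, two-sided, Benjamini-Hochberg over all genes tested, threshold 0.05) on all 13 arrays. Comparisons of SLAM with KLS cells used array weights by population, and those between SLAM groups the 4 SLAM arrays alone. The test scripts were checked on simulated data. Comparisons with wild-type KLS cells share its 4 arrays, and those with 6-week mCG-PR KLS cells its 3. Arrays of equal replicate number in different groups did not deviate together (21 pairs, r from −0.07 to 0.07). In groups of 2 arrays the deviations mirror each other, so some pairs repeat a value. The numbers were not taken to pair the mice, but these values cannot exclude that they do.

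The 9 genes and the lists of other stem cell factors, relatives and cell type markers were chosen with earlier results of these data known. All 9 genes were named in each comparison, with up to 4 genes per list, those called first and then by p, and for likeness the top 3 by Pearson's r, predicted genes passed over. Alternatives covered the filter, the probe set summary, the scaling, the weights, the arrays in the fit, the controls, the replicate block and leaving out each array; a minimum of 3 probe sets and the use of 1 KLS array were added after seeing the data.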

Additional observations from a re-analysis of the deposited data

How the results depend on the processing

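In the comparisons among KLS cells, between SLAM groups and of the genotype differences, no gene of the set was called under any alternative run. For wild-type SLAM minus wild-type KLS cells, 0 genes were called in the reported fit, 1 with the mean of probe sets (Mllt3), 1 in the fit with the replicate block (Ndn), 1 with only the arrays of the groups compared (Ndn) and 3 with no array weights (Gata2, Mllt3, Ndn); leaving out 1 array gave 0 to 1. For mCG-PR SLAM minus 6-week mCG-PR KLS cells, 3 were called in the reported fit, 5 with the mean of probe sets and 5 with no array weights (Hlf and Evi1 added); leaving out 1 array gave 0 to 3. Prdm16 lost its call without mCG-PR KLS 6 weeks replicate 3 (adjusted p = 0.055), and Ndn with only the groups compared (0.075). The cause was not tested. The replicate block changed no other call. No called gene reversed its direction under any alternative. Over all genes, the wild-type population comparison called 338, against 1235 with no weights, 524 with the mean of probe sets, 186 with the block, 197 with only the groups compared, 211 with wild-type KLS replicates 3 and 4 as the controls, and 94 to 338 when 1 array was left out. The mCG-PR comparison called 1398, against 2416 with no weights, 794 after quantile normalisation, 881 with array medians subtracted, and 410 to 1520 when 1 array was left out. Among the other comparisons over all genes, mCG-PR KLS cells of both ages called 0, against 2 with no filter, 10 with only the groups compared, 13 with array weights and 6 without wild-type KLS replicate 3; 6-week cells 1, against 12 with weights and 3 without that replicate; 13-week cells 0, against 11 with only the groups compared; 13 against 6 weeks 0, against 1 with weights; the SLAM genotypes 0, against 272 with all arrays and no weights; and the difference of genotype differences 0, against 112 with no weights, 5 without wild-type SLAM replicate 1 and 2 without 6-week replicate 3. With 2 arrays in 3 of the 5 groups the intervals are wide, and among the KLS arrays Ndn had the largest SD within groups of the 9 genes, 0.51. With a minimum of 3 probe sets Ndn is not tested.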
